A study of Homo sapiens with 15 samples.

Results

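The genes described here are 32 direct transcriptional targets of p53, followed in tumors grown from HCT116 cells, a human colorectal carcinoma line whose p53 is wild type. The members were given as a list of gene symbols, and every non-control probe whose RefSeq accession mapped to one of them was taken. That gave 43 probes for 32 genes, out of 34127 probes and 27777 genes or unnamed records on the array. All 43 were well above background in all 15 tumors, and all 43 were among the 30585 probes tested.

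HCT116 cells were transiently transfected and grown as xenografts in athymic nude mice, and RNA of the excised tumors was labelled with Cy3 and hybridised to single-colour Agilent arrays, 1 tumor per array. There were 5 constructs with 3 tumors each: the empty vector pCDNA3, wild type MOAP-1, the MOAP-1 mutants K264R and K278R, in which a lysine was replaced by an arginine, and RASSF1A. MOAP-1 (modulator of apoptosis 1) is a BAX-binding protein that acts downstream of the tumor suppressor RASSF1A in death receptor signaling. The transfected cells were pools and not single clones, expression of the construct was transient, and the host mice lack T cells but keep the rest of their stroma and blood. The probe of MOAP1 itself was higher than in vector tumors with wild type MOAP-1 (log2 change 0.86, limma adjusted p = 0.000842), K264R (0.55, adjusted p = 0.00939, under 1.5-fold) and K278R (0.74, adjusted p = 0.00504). The probe of RASSF1 was not higher in the tumors labelled RASSF1A (log2 change -0.12, adjusted p = 0.671), and whether it lies within the transfected sequence was not examined. These tumors are therefore named by their label throughout.

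p53 is a transcription factor that is kept low by the ubiquitin ligase MDM2 and accumulates after DNA damage and other stress. It binds DNA as a tetramer at sites built of a pair of ten-letter half-sites and raises genes that stop the cell cycle, repair DNA, adjust metabolism or start apoptosis. MDM2, PPM1D and CCNG1 are themselves targets and close a feedback loop that turns p53 off again. In colorectal cells the cell cycle arrest is carried mainly by CDKN1A, which encodes the cyclin-dependent kinase inhibitor p21.

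Because p53 acts through these sites, the reference promoters of the members were searched for the p53 half-site decamer (a C and a G at the fourth and seventh letters, A or T between them, 3 purines before and 3 pyrimidines after). The windows were RefSeq's on GRCh38.p14, of 300 bases each, from 250 bases before to 50 after an annotated start. There were 37 windows for 27 of the 32 genes. The motif reads the same on both strands, so each match counts once, and a pair of half-sites separated by at most 13 bases was counted as a full site. At least 1 half-site was present in 6.63% of all 35116 windows and in 6 of the 37 member windows (16.2%), which belonged to AEN, DDB2, FDXR, PLK2, RPS27L and SESN1. A full site was present in 0.0285% of all windows and in 1 member window, that of a DDB2 start. Of the 5 genes with a window whose probes were all called in one direction in some comparison with vector (CDKN1A, EPHA2, SESN1, TIGAR and ZMAT3), only SESN1 held a half-site there, and no half-site in this window says nothing about sites farther away. The stretches below are shown because they hold these matches, 150 bases before the start for 5 genes and the first 30 bases from the start for DDB2, each 5′ to 3′ on the strand of the gene with half-sites in capitals. They lie at chr6:109008989-109009138 (minus strand, SESN1), chr11:47214974-47215003 (plus, DDB2), chr15:88621190-88621339 (plus, AEN), chr17:74872995-74873144 (minus, FDXR), chr5:58460087-58460236 (minus, PLK2) and chr15:63157478-63157627 (minus, RPS27L).
SESN1: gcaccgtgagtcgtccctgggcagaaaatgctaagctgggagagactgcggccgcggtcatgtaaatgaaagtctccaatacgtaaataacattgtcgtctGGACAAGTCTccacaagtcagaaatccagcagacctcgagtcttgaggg
DDB2: ggtttGAACAAGCCCtGGGCATGTTTggcg
AEN: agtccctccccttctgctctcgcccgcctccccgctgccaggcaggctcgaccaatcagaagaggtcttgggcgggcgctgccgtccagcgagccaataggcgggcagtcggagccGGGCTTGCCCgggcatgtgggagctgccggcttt
FDXR: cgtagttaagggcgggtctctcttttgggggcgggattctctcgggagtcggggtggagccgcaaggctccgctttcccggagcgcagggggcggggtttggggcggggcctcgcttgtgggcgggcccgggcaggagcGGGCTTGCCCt
PLK2: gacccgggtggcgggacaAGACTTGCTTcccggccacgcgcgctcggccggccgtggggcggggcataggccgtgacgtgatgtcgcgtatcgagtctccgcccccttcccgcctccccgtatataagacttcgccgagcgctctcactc
RPS27L: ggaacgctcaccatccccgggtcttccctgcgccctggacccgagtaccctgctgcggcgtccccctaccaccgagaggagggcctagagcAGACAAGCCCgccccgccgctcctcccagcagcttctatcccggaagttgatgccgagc

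Levels below are log2 processed signals of a probe relative to the 75th percentile of its array, and a change is a difference of group means on that scale with its standard error from limma. A probe was called when its Benjamini-Hochberg adjusted p over all 30585 probes was below 0.05 and the change was at least 1.5-fold. One called probe was enough to call its gene. The 75th percentile itself ran from 496.3 to 1402 signal units over the 15 arrays, 85.1% to 93.1% of probes were well above background, and no spot was saturated. Slides and constructs overlap: the vector tumors shared their slide only with RASSF1A tumor 3, so for MOAP-1, K264R and K278R slide and construct cannot be told apart. In the bulk RNA of a tumor, fewer cells of a type and less RNA per cell cannot be told apart either.

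In each of the 3 MOAP-1 comparisons with vector, 8 of the 32 p53 targets were higher. With wild type MOAP-1 they were AEN, CCNG1, DDB2, EPHA2, FBXO22, SESN1, TIGAR and ZMAT3, and 1 gene, MDM2, was lower at 1 of its 3 probes. Among all 25063 genes tested in this comparison, 11.5% were called higher and 7.83% lower, beside 25% and 3.12% of the members. With K264R the genes that rose were CCNG1, DDB2, EPHA2, FBXO22, RRM2B, SESN1, TIGAR and TP53INP1, and MDM2 again was lower at the same probe (10.7% of all genes higher and 12% lower, beside 25% and 3.12% of the members). With K278R AEN, CCNG1, CDKN1A, DDB2, EPHA2, RRM2B, SESN1 and ZMAT3 were higher and none was lower (9.07% of all genes higher and 3.82% lower, beside 25% and 0%). In tumors labelled RASSF1A no member was called, and none of the 25063 genes was (0% higher and 0% lower). Single tumors weighed on these counts. The shares that follow are of genes called in either direction, unlike the shares of higher and lower genes above. Without vector tumor 2 there were 2 genes called with MOAP-1 (FBXO22 and SESN1), 6.25% of the members beside 14.3% of all genes. In the same setting 8 were called with K264R (25% beside 18.4%) and 2 with K278R (CDKN1A and SESN1, 6.25% beside 6.54%). Taken in either direction, the members in the MOAP-1 and K278R comparisons then no longer stood above the share of all genes. The 2 members called with MOAP-1 and the 2 with K278R were all higher. Among all 25063 genes 2098 were higher and 1513 lower with MOAP-1, and 1051 and 594 with K278R. Without K278R tumor 3 the K278R count was 2 (6.25% beside 9.13%) and without vector tumor 1 it was 5 (15.6% beside 10.7%). The MOAP-1 count was 5 without MOAP-1 tumor 2 (15.6% beside 16.4%) and 4 without tumor 3 (12.5% beside 17.9%). Without RASSF1A tumor 3, 3 genes were called in the RASSF1A comparison (9.38% beside 5.47%).

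**Figure D1:**
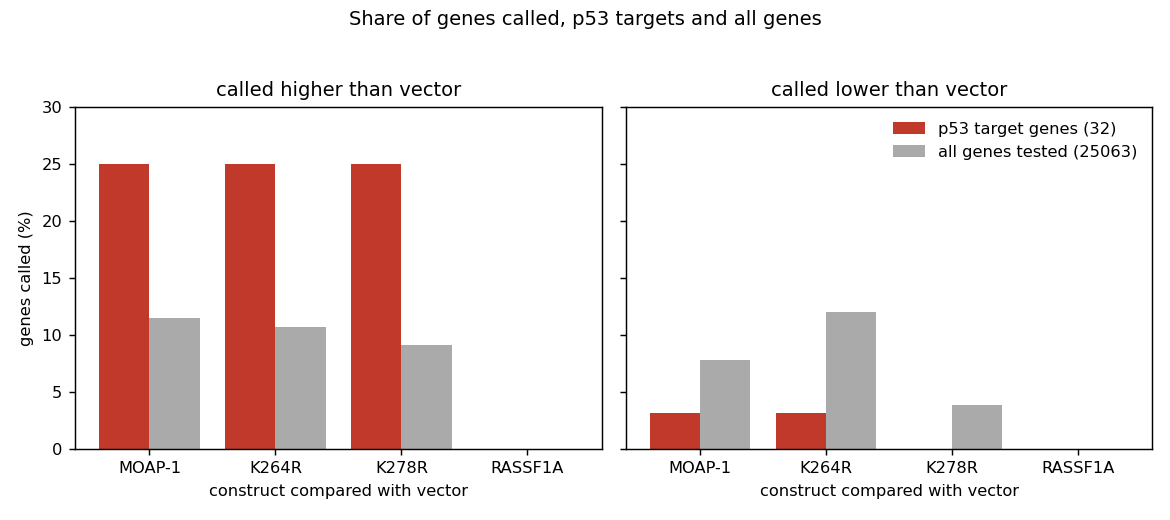
Bars give the percentage of genes called higher (left) or lower (right) than vector for each construct, for the 32 p53 target genes in red and all 25063 genes tested in grey. The red bars stand at 25% for MOAP-1, K264R and K278R on the left, where the grey ones stand at 11.5%, 10.7% and 9.07%, and on the right they lie below the grey bars for these constructs. For RASSF1A both bars are at 0% on either side.

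Taking the members by probe, the median change was 0.27 with MOAP-1 beside 0.02 over all probes tested, 0.09 with K264R beside -0.05, 0.24 with K278R beside 0.06 and 0.13 with RASSF1A beside 0.02. The change was positive at 28 of the 43 probes with MOAP-1 (51.6% of all probes), at 26 with K264R (45.1%), at 34 with K278R (57.2%) and at 29 with RASSF1A (54.1%). Every tumor of the 4 constructs had a member median above the vector mean, from 0.07 in K264R tumor 1 to 0.29 in MOAP-1 tumor 3, and the vector tumors themselves lay between -0.03 and 0.06. The RASSF1A tumors, at 0.17, 0.09 and 0.14, lay above K264R tumors 1 and 2 and MOAP-1 tumor 1, which was at 0.08. Over all probes tested, the medians of the tumors of the 4 constructs ran from -0.10 in K264R tumor 1 to 0.08 in K278R tumor 1. Those of the vector tumors ran from -0.01 to 0.03. The 3 tumors of MOAP-1 stood entirely above the 3 vector tumors at 21 of the 43 probes, where 25% of all probes did so, and entirely below at 7, where 23.5% did. K264R stood above at 19 (22.8% of all probes) and below at 9 (30%), and K278R above at 19 (23.7%) and below at 3 (13.6%). These 4 comparisons use the same vector tumors and are not independent of each other.

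Much of the rise lay in dim probes. Of the 9 member probes called higher with MOAP-1, 7 had a mean signal below the median of all probes tested, as had 5 of 9 with K264R and 6 of 8 with K278R, although 15 of the 43 members were that dim. Over all probes called higher the share below the median was 63.4%, 56.4% and 70.4%. The values also moved with the scale. Setting each array to its median, in place of the 75th percentile, shifted the median of all probes from 0.02 to -0.13 with MOAP-1, from -0.05 to -0.13 with K264R and from 0.06 to -0.07 with K278R, and the members then split into 4 higher and 1 lower, 8 and 1, and 3 and 1. Over all genes the median scaling changed the split with MOAP-1 from 2892 higher and 1963 lower to 1947 and 3322, with K264R from 2686 and 3000 to 2198 and 3786, and with K278R from 2274 and 957 to 1371 and 1684. Background correction of the raw spots by normexp, in place of the scanner's own, left 0, 1 and 0 members called, where all genes split into 244 higher and 262 lower with MOAP-1, 250 and 636 with K264R and 0 and 1 with K278R. It turned the sign at 7 of the 10 member probes called with MOAP-1, at 1 of 10 with K264R (EPHA2, -0.06) and at 6 of 8 with K278R. With MOAP-1 the turned values ran from -0.62 at CCNG1 A_33_P3232277 to -0.14 at DDB2 A_33_P3383955, and with K278R from -0.54 at ZMAT3 to -0.029 at DDB2 A_33_P3383955. The normexp values moved when 5 or 6 spots of extreme local background on each of 3 arrays were left out. These arrays were K264R tumor 2 and vector tumors 2 and 3. The median over all probes then went from -0.53, -0.31 and -0.46 to -0.15, -0.28 and -0.09. The member medians became 0.08, -0.0028 and 0.12. There were 2, 4 and 0 members called, beside 2637, 8419 and 1263 of all genes.

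**Figure D2:**
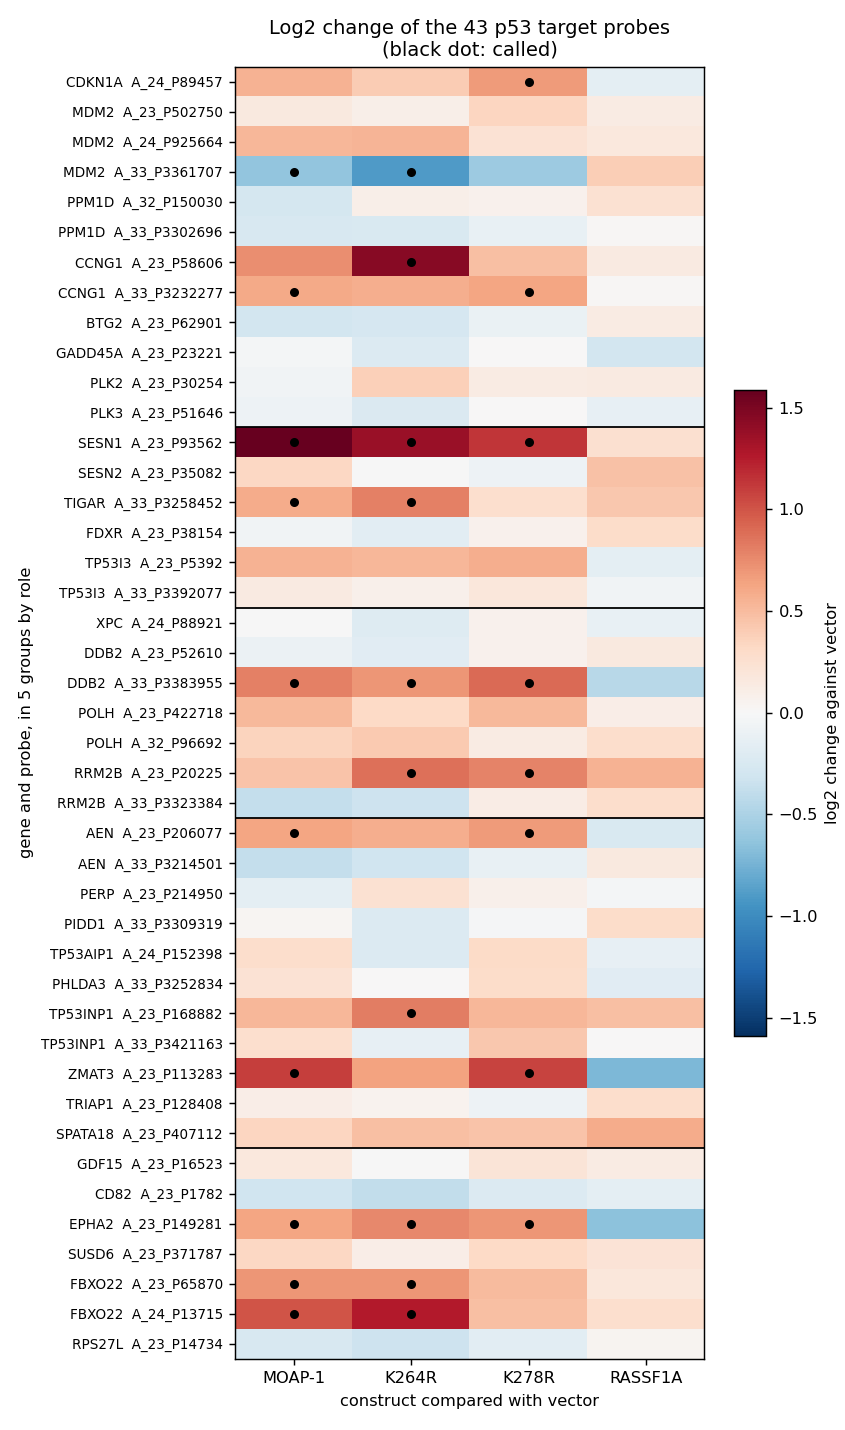
Each row is 1 probe of a p53 target gene, ordered in 5 groups by role, and each column a construct, coloured by the log2 change of its 3 tumors against the 3 vector tumors, with a black dot where the probe was called. SESN1, DDB2 (1 of 2 probes) and EPHA2 carry dots in all 3 MOAP-1 columns, MDM2 is blue at 1 of 3 probes, and the RASSF1A column has no dots.

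Among the 8 genes of cell cycle arrest and p53 feedback, 1 rose and 1 fell with MOAP-1, 1 rose and 1 fell with K264R, and 2 rose with K278R. CDKN1A, measured by 1 probe, was at -2.76, -2.93 and -2.71 in the vector tumors, at -2.48, -2.13 and -2.12 with MOAP-1, at -2.42, -2.32 and -2.46 with K264R and at -2.21, -2.06 and -2.11 with K278R. In the tumors labelled RASSF1A it was at -3.11, -3.11 and -2.65. All 9 tumors of the MOAP-1 constructs were above all 3 vector tumors, and the RASSF1A tumors overlapped them. The change was 0.67 ± 0.14 (SE) with K278R (limma adjusted p = 0.00609), which is past both thresholds and stayed past them without any one of the 6 tumors compared. The K278R call was lost, however, with quantile normalization and with median scaling, and normexp gave -0.24. With MOAP-1 the change was 0.56 ± 0.14 (adjusted p = 0.00822), short of 1.5-fold by a small margin and past it without MOAP-1 tumor 1 (0.68) or vector tumor 3 (0.60), and with K264R 0.40 ± 0.14 (adjusted p = 0.0339). In tumors labelled RASSF1A the change was -0.15 ± 0.14 (adjusted p = 0.665).

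MDM2 had 3 probes, all annotated to 1 RefSeq record, and they moved apart. Probe A_33_P3361707 was at 2.16, 2.40 and 1.66 in vector tumors, at 1.30, 1.46 and 1.57 with MOAP-1, at 0.95, 1.40 and 1.16 with K264R, at 1.63, 1.25 and 1.60 with K278R and at 2.70, 2.39 and 2.31 with RASSF1A. All tumors of the MOAP-1 constructs were below all vector tumors, although K278R tumor 1 and vector tumor 3 nearly touch. The change was -0.63 ± 0.19 with MOAP-1 (limma adjusted p = 0.0227), -0.90 ± 0.19 with K264R (adjusted p = 0.00263), -0.58 ± 0.19 with K278R (adjusted p = 0.0441, under 1.5-fold) and 0.40 ± 0.19 with RASSF1A (adjusted p = 0.417). The fall with MOAP-1 was not past the thresholds without MOAP-1 tumor 1 (-0.55) or 2 (-0.64) or without vector tumor 1 (-0.59) or 2 (-0.46), and that with K278R passed them without vector tumor 3 (-0.78).

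Probe A_24_P925664 of the same gene went the other way, from -0.83, -1.15 and -0.83 in vector tumors to -0.52, -0.47 and -0.23 with MOAP-1 and to -0.37, -0.33 and -0.50 with K264R. Its tumors with K278R were at -0.72, -0.57 and -0.82 and those with RASSF1A at -0.70, -0.82 and -0.78. None of the 4 groups overlapped the vector group, although the lowest K278R and RASSF1A tumors, both at -0.82, stood just above the highest vector tumor. The changes with MOAP-1 and K264R were 0.53 ± 0.12 (limma adjusted p = 0.00431) and 0.54 ± 0.12 (adjusted p = 0.00325), both below 1.5-fold and both past it without vector tumor 1 (0.59 and 0.59) or vector tumor 3 (0.59 and 0.59), the first also without MOAP-1 tumor 1 (0.59) and the second without K264R tumor 3 (0.59). The changes with K278R and RASSF1A were 0.24 (adjusted p = 0.158) and 0.17 (adjusted p = 0.549).

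The third probe, A_23_P502750, was at -3.45, -3.45 and -3.43 in vector tumors, at -3.40, -3.29 and -3.16 with MOAP-1 and at -3.37, -3.41 and -3.28 with K264R. With K278R it was at -3.18, -2.90 and -3.24 and with RASSF1A at -3.21, -3.38 and -3.35. All 12 other tumors were above the vector tumors, yet the changes were small, 0.16 (adjusted p = 0.252), 0.09 (adjusted p = 0.528), 0.34 (adjusted p = 0.0361) and 0.13 (adjusted p = 0.616) in the order MOAP-1, K264R, K278R and RASSF1A. No direction for MDM2 as a gene follows from these 3 probes.

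CCNG1 encodes cyclin G1, which brings a phosphatase to MDM2. Its probe A_23_P58606 was at -1.32, -1.30 and -1.35 in vector tumors and at -0.53, -0.51 and -0.71 with MOAP-1. It was at 0.52, -0.65 and 0.49 with K264R, at -1.44, -1.51 and 0.41 with K278R and at -1.16, -1.23 and -1.15 with RASSF1A. K264R tumors 1 and 3 and K278R tumor 3 stood far above the other 12 tumors. The change with K264R was 1.44 ± 0.41 (limma adjusted p = 0.0166), and it was no longer past the threshold without K264R tumor 1 (1.24) or tumor 3 (1.26). The other CCNG1 probe had a smaller SE (0.16), with changes of 0.60 with MOAP-1 (adjusted p = 0.014), 0.57 with K264R (adjusted p = 0.0154, under 1.5-fold) and 0.62 with K278R (adjusted p = 0.0187). Its K278R group overlapped the vector group, with K278R tumor 1 at -3.15 and vector tumor 1 at -3.09. The MOAP-1 and K278R calls of this probe were both lost without vector tumor 2 or 3, and with K278R also without K278R tumor 2 or 3. Both were also lost with quantile normalization and with median scaling.

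The other 5 genes of this group were not called in any comparison. PPM1D, the phosphatase that dephosphorylates p53 and its kinases, changed by -0.28 and -0.26 at its 2 probes with MOAP-1. BTG2, an antiproliferative cofactor of mRNA deadenylation, changed by -0.29 with MOAP-1 (adjusted p = 0.0275) and -0.27 with K264R (adjusted p = 0.0347). GADD45A, a growth arrest and stress signaling protein, changed by -0.03, -0.22, 0.01 and -0.29 in the 4 comparisons. The polo-like kinases PLK2 and PLK3 lay between -0.24 and 0.37 against vector. All of their mean changes were within 1.5-fold of vector.

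**Figure D3:**
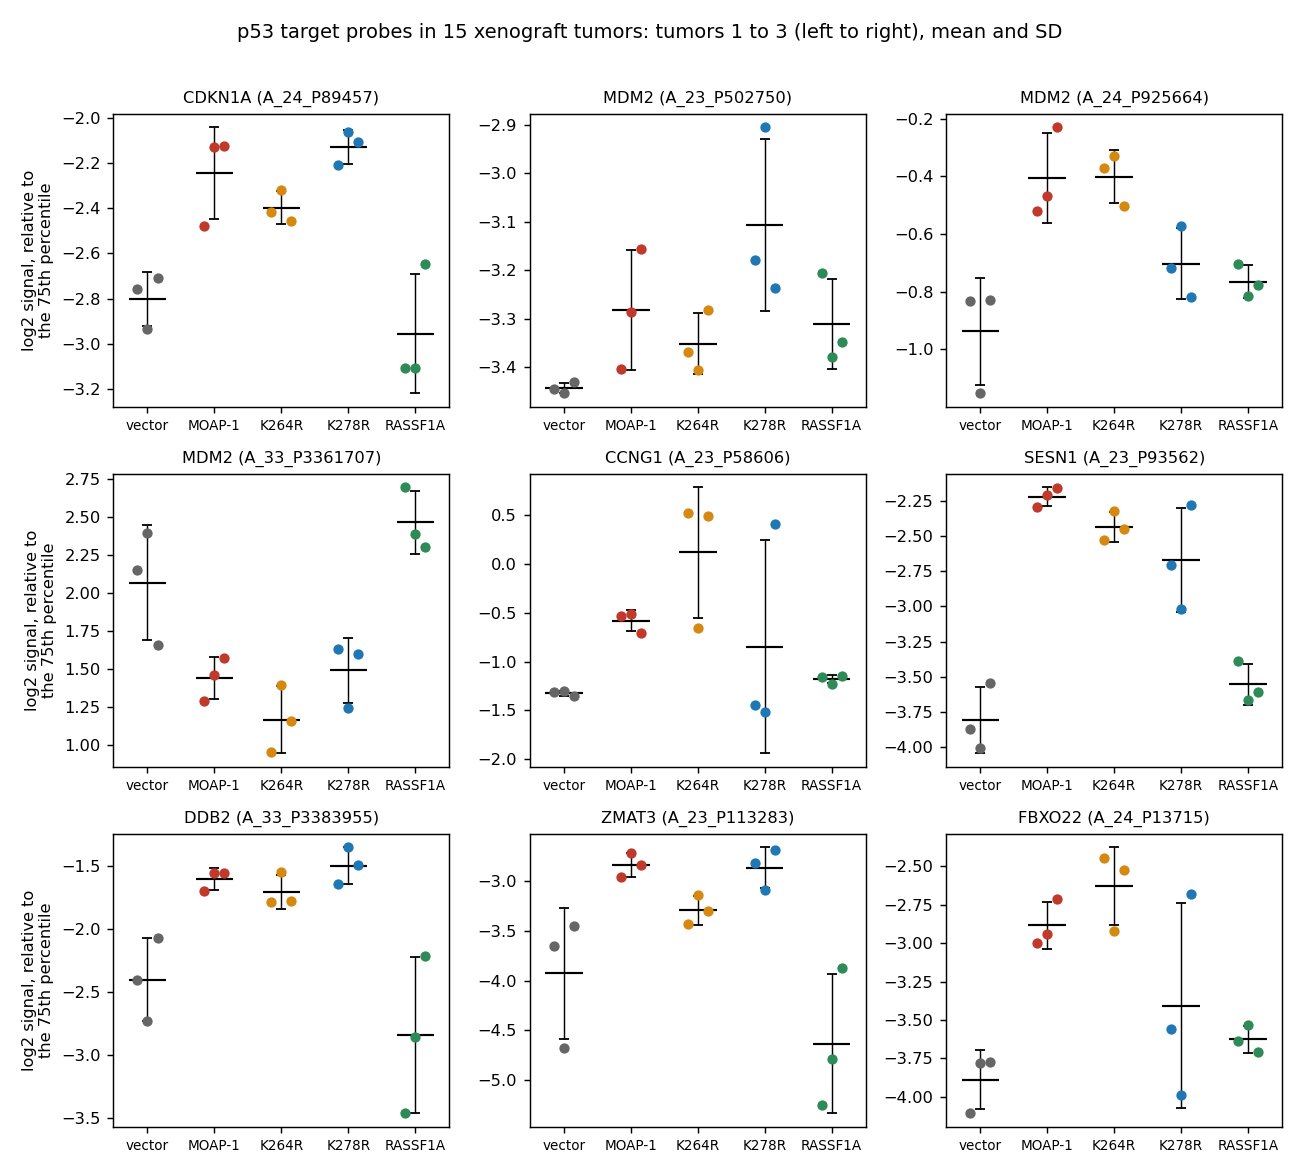
Each panel plots the log2 signal of 1 probe, relative to the 75th percentile of the array, for the 3 tumors of each construct (points, tumors 1 to 3 from left to right) with the mean (bar) and SD (whiskers). SESN1 separates all 9 tumors of the MOAP-1 constructs from vector and RASSF1A tumors, the 3 MDM2 panels differ in direction, and CCNG1 is high in K264R tumors 1 and 3 and in K278R tumor 3.

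Of the 5 genes of metabolism and redox balance, SESN1 and TIGAR rose with MOAP-1 and K264R, and SESN1 with K278R. SESN1 encodes sestrin 1, a stress protein that restrains the growth kinase mTORC1. It was at -3.87, -4.01 and -3.55 in the vector tumors, at -2.29, -2.21 and -2.16 with MOAP-1, at -2.53, -2.32 and -2.45 with K264R, at -2.70, -3.02 and -2.28 with K278R and at -3.39, -3.67 and -3.60 with RASSF1A. Every tumor of the MOAP-1 constructs was above every vector and RASSF1A tumor. The change was 1.59 ± 0.17 with MOAP-1 (limma adjusted p = 0.000159), 1.38 ± 0.17 with K264R (adjusted p = 0.000128) and 1.14 ± 0.17 with K278R (adjusted p = 0.00214), beside 0.26 with RASSF1A (adjusted p = 0.541). In the MOAP-1 and K278R comparisons it was the member that rose most. SESN1 was past both thresholds in these 3 comparisons without any one of the tumors compared. Under normexp background correction on the raw spot signals, which moved the median of all probes to -0.53, -0.31 and -0.46, SESN1 was at -0.23, 0.08 and -0.46 and was not called. With the 5 or 6 spots of extreme local background on each of 3 arrays left out of that correction, the values were 0.73, 0.48 and 0.49.

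Its paralog SESN2 was not called. It was at -1.42, -1.95 and -1.17 in vector tumors and at -2.10, -1.58 and 0.12 with MOAP-1, and tumor 3 of MOAP-1 was the highest of all 15, above the -0.57 of RASSF1A tumor 2. TIGAR, a phosphatase that lowers fructose-2,6-bisphosphate and so glycolysis, rose by 0.59 ± 0.17 with MOAP-1 (limma adjusted p = 0.0174) and by 0.80 ± 0.17 with K264R (adjusted p = 0.00255). The first was not past the thresholds without MOAP-1 tumor 3 or vector tumor 2 (0.47 at the lowest), while the second stayed past them in all 6 such comparisons. With MOAP-1 TIGAR was also not called with quantile normalization or median scaling. With K278R it changed by 0.27 (adjusted p = 0.262) and with RASSF1A by 0.42 (adjusted p = 0.363). TP53I3, a quinone oxidoreductase, changed by 0.56, 0.53 and 0.58 at probe A_23_P5392 with MOAP-1, K264R and K278R (adjusted p = 0.00818, 0.00863 and 0.0114), just under 1.5-fold, and by 0.15, 0.08 and 0.18 at its other probe. FDXR, the mitochondrial ferredoxin reductase, whose window holds a half-site beside its start, changed by -0.05, -0.17, 0.07 and 0.29 over the 4 constructs.

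Of the 4 genes of DNA repair and nucleotide supply, DDB2 rose with all 3 MOAP-1 constructs and RRM2B with the mutants, each at 1 of 2 probes. DDB2 recognises UV damage in nucleotide excision repair. Its probe A_33_P3383955 was at -2.41, -2.73 and -2.08 in vector tumors, at -1.70, -1.56 and -1.56 with MOAP-1, at -1.79, -1.55 and -1.78 with K264R, at -1.65, -1.36 and -1.49 with K278R and at -3.46, -2.86 and -2.22 with RASSF1A. All tumors of the MOAP-1 constructs were above the vector tumors. The change was 0.80 ± 0.24 with MOAP-1 (limma adjusted p = 0.0256), 0.70 ± 0.24 with K264R (adjusted p = 0.0412) and 0.91 ± 0.24 with K278R (adjusted p = 0.0215), none of which held without each single tumor. The K278R call was lost without vector tumor 1 (0.91), vector tumor 2 (0.74), K278R tumor 2 (0.83) or K278R tumor 3 (0.90), and the MOAP-1 call without vector tumor 1 or 2 or MOAP-1 tumor 2 or 3. The K264R call was lost with 5 of the 6 tumors left out in turn and stood only without vector tumor 3 (0.86). Over all 6 of these cases the change ran from 0.53 to 0.86. The other DDB2 probe, annotated to the same record, changed by -0.09, -0.19 and 0.07, and none of these was past the threshold.

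RRM2B encodes the p53-inducible small subunit of ribonucleotide reductase, which supplies deoxynucleotides for repair. Its probe A_23_P20225 was at -2.40, -2.44 and -2.32 in vector tumors, at -1.36, -1.93 and -1.22 with K264R and at -2.01, -1.91 and -0.88 with K278R, where tumor 3 stood far above the other 2. It changed by 0.45 with MOAP-1 (adjusted p = 0.188), rose by 0.88 with K264R (limma adjusted p = 0.0153) and rose by 0.79 with K278R (adjusted p = 0.0409). Without K278R tumor 3 the last was 0.43 (adjusted p = 0.12), and its call was also lost without vector tumor 1, 2 or 3, as was the K264R call without K264R tumor 1 (0.81) or 3 (0.74). The K278R call was lost as well with quantile normalization and with median scaling. The other RRM2B probe changed by -0.38, -0.33 and 0.12. POLH, the polymerase that copies past UV lesions, was higher at both probes with MOAP-1, by 0.52 (adjusted p = 0.0239) and 0.35 (adjusted p = 0.0344), both under 1.5-fold. XPC, the damage sensor that works with DDB2, changed by -0.01, -0.21, 0.06 and -0.12 over MOAP-1, K264R, K278R and RASSF1A.

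Of the 9 genes of cell death and survival, AEN and ZMAT3 rose with MOAP-1 and K278R, and TP53INP1 with K264R. ZMAT3, a zinc finger protein that binds RNA and regulates splicing, was at -3.66, -4.68 and -3.45 in vector tumors, at -2.96, -2.71 and -2.84 with MOAP-1, at -3.43, -3.14 and -3.30 with K264R, at -2.81, -3.09 and -2.68 with K278R and at -5.26, -4.79 and -3.87 with RASSF1A. The 3 groups of MOAP-1 constructs were above the vector group, and vector tumor 2 lay far below the other vector tumors. The change was 1.09 ± 0.33 with MOAP-1 (limma adjusted p = 0.0233), 1.07 ± 0.33 with K278R (adjusted p = 0.036) and 0.64 ± 0.33 with K264R (adjusted p = 0.148). Without vector tumor 2 the first was 0.72 (adjusted p = 0.106) and the second 0.69 (adjusted p = 0.155). The first was also not past the threshold without MOAP-1 tumor 2 (1.03) or 3 (1.09), nor the second without K278R tumor 1 (1.04) or 3 (0.98).

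AEN, a nuclease that fragments DNA in apoptosis, rose at probe A_23_P206077 by 0.63 ± 0.19 with MOAP-1 (limma adjusted p = 0.0222) and by 0.68 ± 0.19 with K278R (adjusted p = 0.0229), and changed by 0.57 with K264R (adjusted p = 0.0297, under 1.5-fold). The MOAP-1 call was lost without MOAP-1 tumor 1 or 3 or vector tumor 2, and the K278R call without K278R tumor 1 or 3 or vector tumor 1 or 2, with lowest values of 0.42 and 0.47. Its other probe, for the same record, changed by -0.38, -0.12 and -0.31 in that order. TP53INP1, a nuclear cofactor of p53 that also acts in autophagy, rose at probe A_23_P168882 with K264R by 0.82 ± 0.20 (adjusted p = 0.00619), also without any one of the 6 tumors compared. The same probe changed by 0.53 with MOAP-1 (adjusted p = 0.057) and 0.52 with K278R (adjusted p = 0.0733), and the other TP53INP1 probe by 0.27, -0.12 and 0.43 with MOAP-1, K264R and K278R.

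The remaining death genes were not called with any construct. They were PERP (a membrane protein of desmosomes and apoptosis), PIDD1 (which activates caspase-2), TP53AIP1 (a mitochondrial apoptosis protein), PHLDA3 (an inhibitor of AKT), TRIAP1 (a mitochondrial survival protein) and SPATA18 (which acts in mitochondrial quality control). PERP changed by -0.15, 0.24, 0.08 and -0.03, and PIDD1 by 0.04, -0.22, -0.02 and 0.29. The largest value among these 6 was that of SPATA18 in the tumors labelled RASSF1A, 0.59 (adjusted p = 0.372).

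Of the 6 secreted, surface and other proteins, EPHA2 and FBXO22 rose. FBXO22 encodes an F-box protein that selects substrates for ubiquitination, and it alone among the 10 genes with several probes had all of them called, with MOAP-1 and with K264R. Its probe A_24_P13715 was at -4.11, -3.78 and -3.77 in vector tumors, at -3.00, -2.94 and -2.71 with MOAP-1, at -2.45, -2.92 and -2.52 with K264R, at -3.56, -3.99 and -2.68 with K278R and at -3.63, -3.53 and -3.71 with RASSF1A. The groups of MOAP-1 and K264R were above all vector tumors, while K278R tumor 2 fell among them and K278R tumor 3 stood above. The change was 1.00 ± 0.25 with MOAP-1 (limma adjusted p = 0.00968), 1.26 ± 0.25 with K264R (adjusted p = 0.00209) and 0.48 ± 0.25 with K278R (adjusted p = 0.185). The other FBXO22 probe, annotated to a different RefSeq record, rose by 0.70 ± 0.12 with MOAP-1 (adjusted p = 0.00086) and by 0.70 ± 0.12 with K264R (adjusted p = 0.00065), and changed by 0.51 with K278R (adjusted p = 0.0106, under 1.5-fold). With MOAP-1 and with K264R both probes stayed past the thresholds without any one of the tumors compared.

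EPHA2, an ephrin receptor tyrosine kinase, rose by 0.63 with MOAP-1 (adjusted p = 0.0311), 0.76 with K264R (adjusted p = 0.0106) and 0.70 with K278R (adjusted p = 0.028). The K264R call held without any one of the 6 tumors compared. The MOAP-1 call was lost in 5 of 6 such comparisons, standing only without vector tumor 3, with changes from 0.54 to 0.70, and the K278R call without K278R tumor 2 or 3 or vector tumor 1 or 2. With MOAP-1 and K278R EPHA2 was also not called with quantile normalization (0.51 and 0.57) or median scaling (0.48 and 0.57), nor with MOAP-1 with slide as a random block (0.58), and normexp gave -0.61, -0.06 and -0.53 with MOAP-1, K264R and K278R. GDF15, a secreted stress cytokine that is often used to read p53 activity, changed by 0.17, -0.01, 0.21 and 0.13, and its groups overlapped the vector group of 4.23, 4.83 and 4.61. CD82, a tetraspanin that suppresses metastasis, changed by -0.32 with MOAP-1 (adjusted p = 0.0315) and by -0.39 with K264R (adjusted p = 0.00976), both under 1.5-fold. RPS27L, a ribosomal protein paralog, changed by -0.25, -0.33 and -0.17, and SUSD6, a membrane protein, by 0.33, 0.10 and 0.31 with MOAP-1, K264R and K278R.

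Over the 4 comparisons with vector, 12 of the 32 genes were called at least once and 20 in none. Among all genes tested, 4805 were called with MOAP-1, 5612 with K264R, 3207 with K278R and 0 with RASSF1A. How many of all genes were called at least once was not counted, so whether 12 of 32 is a high share cannot be told. DDB2, EPHA2 and SESN1 were called with all 3 MOAP-1 constructs, as was CCNG1 through different probes. Of these 4, SESN1 alone kept its calls in all 3 comparisons whichever tumor was left out, while those of DDB2 with K264R and of EPHA2 with MOAP-1 were lost in 5 of 6 cases. Of the 10 genes with more than 1 probe (21 probes), 9 had probes annotated to 1 record. Their probes had opposite signs in 4 genes with MOAP-1, 6 with K264R, 3 with K278R and 2 with RASSF1A, and the widest gap between probes of a gene was 1.44 with K264R, at MDM2. For MDM2, DDB2, RRM2B and AEN, and with K264R also for TP53INP1 and PPM1D, the change of the gene thus depends on the probe read.

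**Figure D4:**
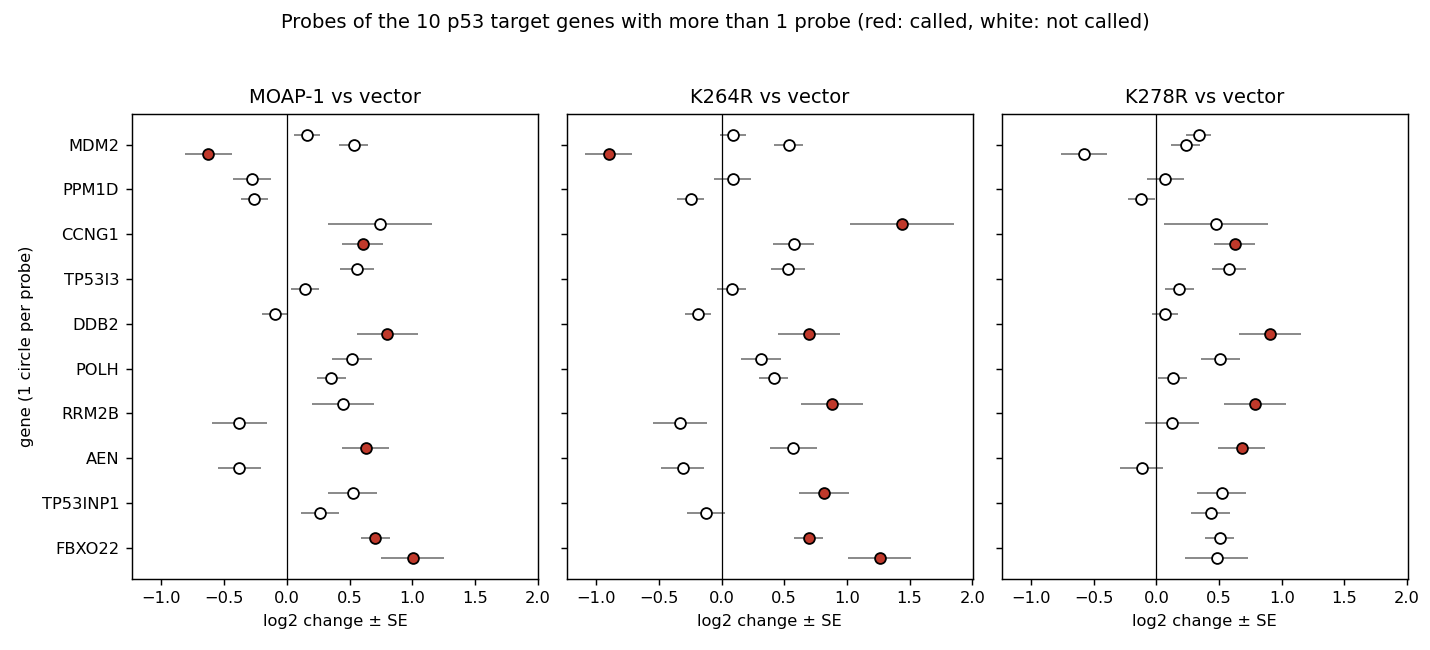
Circles give the log2 change against vector of each probe of the 10 p53 target genes with more than 1 probe, with SE as lines, red where called, for MOAP-1, K264R and K278R. Both FBXO22 circles are red with MOAP-1 and K264R, while MDM2, DDB2, RRM2B and AEN have circles on both sides of 0 with MOAP-1 and K264R.

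The wild type and mutant MOAP-1 tumors were compared directly. No member was called between MOAP-1 and K264R, where limma called 1 of 25063 genes (0.00399%), or between MOAP-1 and K278R, where it called none (0%). At an unadjusted p below 0.05 there were 5 of 43 member probes in each (10.9% and 9.22% of all probes), and at the methods' t-test no member was past the thresholds, with or without adjustment. Member changes ran from -0.70 (CCNG1 A_23_P58606) to 0.50 (TP53AIP1) between MOAP-1 and K264R, with a median of 0.07 beside 0.07 over all probes. Between MOAP-1 and K278R they ran from -0.50 (RRM2B A_33_P3323384) to 0.52 (FBXO22 A_24_P13715), with a median of -0.05 beside -0.05. Within the slide that held MOAP-1 tumor 2 and the 3 K278R tumors the median was -0.02 and the range -0.58 to 0.46. These results do not show that the proteins act alike. At SESN2 and CCNG1 A_23_P58606, with SE of 0.52 and 0.41, a 1.5-fold difference was not detectable with 3 tumors a group. Less noisy probes could fall short of the adjusted threshold as well. PERP, whose MOAP-1 tumors were all below the K264R tumors, changed by -0.39 ± 0.10 (limma unadjusted p = 0.0023, adjusted p = 0.325). How large a difference could have been called at the other probes was not tested.

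Between the tumors labelled RASSF1A and vector, limma called no member and the methods' t-test none, while 9 of 43 member probes had an unadjusted p below 0.05 (12.1% of all probes). The RASSF1A group stood entirely above vector at 10 member probes (10.1% of all probes) and entirely below at 1 (4.66%). RASSF1A tumors 1 and 2, on a slide and scan day of their own, lay apart from tumor 3, which shared the slide of the vector tumors. EPHA2 was at -4.20 and -4.08 in tumors 1 and 2 and at -3.21 in tumor 3, beside -3.13, -3.36 and -3.04 in vector tumors. ZMAT3 and DDB2 A_33_P3383955, given above, were likewise lowest in tumors 1 and 2. Without tumor 3, DDB2, EPHA2 and ZMAT3 were called lower. On the shared slide alone the member changes of tumor 3 ran from -0.37 to 0.37 with a median of 0.14. For tumors 1 and 2 slide and construct cannot be told apart.

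Genes around the members were read from 3 further lists. Beside them, 11.5% of all 25063 genes were called higher and 7.83% lower with MOAP-1, and 10.7% and 12% with K264R. The shares were 9.07% and 3.82% with K278R and 0% and 0% with RASSF1A. Of 13 regulators of p53, 4 were higher and 1 lower with MOAP-1, and 4 and 1 with K264R, and none was called with K278R or RASSF1A. The checkpoint kinases CHEK1 (0.59, limma adjusted p = 0.000513) and CHEK2 (0.69, adjusted p = 0.0013), the p53 kinase HIPK2 (0.90, adjusted p = 0.000555) and the ubiquitin ligase COP1 (0.59, adjusted p = 0.00865) were higher with MOAP-1, and CDKN2A, whose ARF product inhibits MDM2, was lower (-0.65, adjusted p = 0.00659). CHEK2, HIPK2 and CDKN2A were each called at 1 of 2 probes, and their other probes changed by -0.18, 0.18 and 0.08. With K264R CHEK1, CHEK2 (1 of 2 probes), COP1 and the ligase TOPORS (1.23, adjusted p = 0.00362) were higher and CDKN2A again lower at the same probe (-0.83, adjusted p = 0.0012) but not at the other (-0.01). Of 12 further p53 targets of the death and extracellular programs, BAX (0.68), FAS (1.08) and APAF1 (1.04) rose with MOAP-1, the same 3 with K264R, BAX (0.90) and FAS (0.87) with K278R and none with RASSF1A, and none fell. BAX was called at 1 of 2 probes, and the other changed by -0.0054 with MOAP-1, -0.17 with K264R and 0.19 with K278R. FAS was called at 1 of 3 probes, with -0.03 and 0.11 at the others with MOAP-1, and APAF1 has 1 probe. BAX opens the mitochondrial membrane, FAS is a death receptor and APAF1 assembles the apoptosome.

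The third list held 14 genes of G2 and mitosis that are repressed through p21 and the DREAM complex when p53 is active. None of the 14 was called lower with any construct. With MOAP-1, 5 rose, among them TOP2A (1.84, adjusted p = 0.000413), MKI67 (1.46, adjusted p = 0.00058) and FOXM1 (0.68, adjusted p = 0.00902). MKI67 was called at 1 of 3 probes, and the others changed by 0.53 and -0.13. With K264R 8 rose, TOP2A by 2.11 and CCNB1, which encodes cyclin B1, by 0.70 at 1 of 2 probes, with -0.20 at the other. With K278R 4 rose, and with RASSF1A none was called. Of all genes, 11.5%, 10.7%, 9.07% and 0% were called higher with MOAP-1, K264R, K278R and RASSF1A. The median change over the 19 probes of this list was 0.23, 0.42, 0.11 and 0.16 in that order. Over all probes tested it was 0.02, -0.05, 0.06 and 0.02.

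All 9 probes of the intestinal epithelial markers were well above background in every tumor. Stroma and blood cells of these xenografts come from the host mice, while the probes were named through human records. How far the stromal and blood cell probes read mouse RNA was not tested, so their levels do not measure those cells. Of the 9 stromal fibroblast probes, 6 to 8 were above background in a tumor, and their summed level, in log2, ran from 1.23 to 4.44 in vector tumors, from 2.79 to 5.67 with MOAP-1, from 2.43 to 4.45 with K264R, from 3.89 to 5.59 with K278R and from 3.26 to 3.82 with RASSF1A. COL1A1 (log2 change 2.24) and DCN (4.46 at 1 of 2 probes) were called higher with MOAP-1 and PDGFRB (1.34) with K278R. The part of stroma in the changes of the p53 targets was not tested. Leukocyte markers summed to between 2.97 and 3.72 over the 15 tumors, endothelial markers to between 1.11 and 1.88, and erythroid markers to between 2.88 and 3.68. Single probes of these lists were called: PTPRC, which marks leukocytes, was higher at 1 of 4 probes with MOAP-1 (0.72) and K278R (0.69), and HBG1, a fetal globin, was lower at 1 of 2 probes with MOAP-1, K264R and K278R (-0.67, -0.79 and -0.63). The epithelial keratin KRT8 was higher at 1 of 2 probes with MOAP-1 (1.07) and K264R (0.97). The part of these cell types in the changes of the p53 targets was not tested either.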

How the data were processed

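Total RNA of HCT116 xenograft tumors was measured on single-colour arrays. Spot intensity had been extracted by the authors with Agilent Feature Extraction (version 10.5.1.1 per the file headers, 9.1 per the submitters' notes), and the deposited intensity columns hold the processed signal, the median spot signal and the local background. The deposited log2 table, normalized by the authors in GeneSpring, served only as an alternative: 8 of its 15 columns followed the array of their own label most closely and 7 another array of the same construct.

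The log2 processed signal minus the 75th percentile of each array was averaged over spots of a probe. Kept were 30585 of 34127 probes, those well above background on all arrays of at least 1 construct. Groups were compared with limma 3.58.1 in R 4.3.3 over all 15 arrays (10 residual degrees of freedom, construct only), adjusted by Benjamini-Hochberg. The script was tested on simulated data. Accessions were named through RefSeq on GRCh38.p14 (74.5% of probes), and the arrays' own header names hg19. Detail was given for CDKN1A, MDM2 and the 3 member probes that rose or fell most among called probes whose groups did not overlap, and other members were described by their changes. Members and lists were chosen with earlier results of these data known, and the promoter search was widened from fully called genes to all members after the values were seen. Tumors were independent per the methods, and only 3 per construct limit the precision. Same-numbered tumors of different constructs did not all deviate together (15 of 30 pairs over r 0.1, median 0.113, range -0.25 to 0.366). Among pairs of other numbers 19 of 60 were over r 0.1 (median -0.038, range -0.467 to 0.452). The same-numbered pairs thus had the higher median, with overlapping ranges. Numbers were not used as pairs in the main comparison, and the replicate number as a block served as an alternative. Alternatives covered scaling, background correction, probe filter, probe choice, the methods' t-test, slide, scan day, single tumors and the deposited table.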

Additional observations from a re-analysis of the deposited data

How the results depend on the processing

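Counts are of member genes called, in the order MOAP-1, K264R and K278R against vector, where the values given above were 9, 9 and 8. They were 5, 9 and 4 with median scaling, 6, 12 and 4 with quantile normalization, 0, 1 and 0 with normexp, 2, 4 and 0 with normexp without spots of extreme local background, 7, 9 and 4 with the compared arrays alone, 6, 8 and 5 with the brightest probe per gene, 4, 5 and 0 with the methods' t-test adjusted and 7, 9 and 5 unadjusted, an alternative chosen after seeing the data. They were 9, 9 and 8 with the replicate number as a block, which changed no count. Under both median scaling and quantile normalization CCNG1, EPHA2 and TIGAR lost their calls with MOAP-1. With K278R CCNG1, CDKN1A, EPHA2 and RRM2B lost theirs under both. AEN lost its MOAP-1 and K278R calls under median scaling alone. MDM2 with MOAP-1 and ZMAT3 with K278R lost theirs under quantile normalization alone. Leaving out 1 tumor gave 2 to 11, 7 to 11 and 2 to 10, and 0 to 3 for RASSF1A against vector, 0 to 0 for MOAP-1 against K264R and 0 to 1 for MOAP-1 against K278R (FBXO22, without K278R tumor 3). Without vector tumor 2 there were 2 with MOAP-1 (FBXO22 and SESN1) and 2 with K278R (CDKN1A and SESN1). The K278R count was also 2 without K278R tumor 3 and 5 without vector tumor 1, and the MOAP-1 count 5 without MOAP-1 tumor 2 and 4 without tumor 3. Median member changes were 0.12, 0.0083 and 0.11 with median scaling, -0.15, -0.063 and -0.040 with normexp, 0.077 (MOAP-1) and -0.0028 (K264R) with normexp without spots of extreme local background and 0.16 (MOAP-1) and 0.13 (K278R) with the brightest probe. The K264R median was 0.19 with quantile normalization. For RASSF1A against vector it was -0.14 with normexp and 0.015 without those spots, and for MOAP-1 against K264R 0.0037 with median scaling and -0.14 with normexp. Over single tumors left out the medians ran from 0.18 to 0.27, 0.12 to 0.16, 0.18 to 0.31, 0.09 to 0.15 (RASSF1A), 0.02 to 0.10 (MOAP-1 against K264R) and -0.08 to -0.01 (MOAP-1 against K278R).

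Signs that turned did so mostly under normexp: with MOAP-1, SESN1 (-0.23), ZMAT3 (-0.60), FBXO22 A_24_P13715 (-0.56), CDKN1A (-0.35) and MDM2 A_23_P502750 (-0.92); with K264R, CDKN1A (-0.063) and MDM2 A_23_P502750 (-0.37); with K278R, SESN1 (-0.46), ZMAT3 (-0.54), DDB2 A_33_P3383955 (-0.029), CDKN1A (-0.24), MDM2 A_23_P502750 (-0.77) and A_24_P925664 (-0.058); with RASSF1A, MDM2 A_23_P502750 (-0.83) and A_24_P925664 (-0.17). Without the spots of extreme local background, MDM2 A_23_P502750 was at -0.10, -0.29 and -0.012 with MOAP-1, K264R and RASSF1A. CDKN1A with RASSF1A was 0.15 with scan day as a block or, added after seeing the data, slide as a fixed block. The cause of these turns was not tested.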

Other observations

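The 3 tumors that stood highest at CCNG1 A_23_P58606, K264R tumors 1 and 3 and K278R tumor 3, were also the highest of the 15 at 3 other member probes, TP53INP1 A_23_P168882, RRM2B A_23_P20225 and FBXO22 A_24_P13715. With CCNG1, which defined the 3 tumors and so was counted by construction, that made 4 of 43 member probes (9.3%). Of the probes tested, 755 (2.48%) had the same 3 tumors on top. These shares are therefore not a like comparison. The gap was widest at CCNG1, whose lowest of the 3 was at 0.41 and whose highest among the other tumors was at -0.51, and it was narrow at FBXO22 (-2.68 beside -2.71). The tumors came from 2 constructs and 2 slides, and the pattern was noticed after the values were seen.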
